A study of Danio rerio with 6 samples.

Results

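Lipid droplets store neutral fat inside cells, under a coat of perilipin proteins that limits the access of lipases to the fat. Fatty acids reach the droplets of a cell from the blood. A lipase at the vessel wall frees them from lipoproteins, a membrane transporter and small binding proteins carry them in, and acyl-CoA synthetases activate them for storage or oxidation. Vascular endothelium is the layer through which fatty acids pass to heart muscle, which uses them as a main fuel.

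The genes described here are 9 names of this route, chosen by name: the coat genes plin2 and plin3, and the uptake and activation genes cd36, fabp3, fabp11a, lpl, angptl4, acsl1a and acsl1b. The names matched 10 of the 32520 gene IDs in the tables, because 2 IDs carry the name LPL. plin2 and plin3 were picked because they were higher in DNK, so their values in this comparison are given as a description, with no test. The other genes were taken for their place in the route.

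RNA-seq libraries were made from endothelial cells sorted by the fluorescence of a kdrl:eGFP reporter from ventricles of about 15 adult zebrafish hearts (strain Tu), 7 days after ventricular resection. The DNK group, 3 libraries, carried kdrl:CreER, kdrl:eGFP and ubi:loxp-DsRed-stop-loxp-DN-xBrg1. In these fish 4-hydroxytamoxifen, given for 3 days before the surgery, lets Cre release a dominant-negative Xenopus Brg1 in cells where the kdrl promoter is active. Brg1 is the ATPase of the SWI/SNF complex, which moves nucleosomes. The CtrlK group, 3 libraries, carried the same silent transgene and reporter without kdrl:CreER and, per the treatment protocol, received the same drug. Other labels call CtrlK wild-type siblings or untreated, so the dominant-negative protein cannot be told apart here from Cre itself or, if CtrlK was untreated, from the drug. The labels do not say whether the libraries of a group came from separate pools of fish, so the p-values measure only a spread between libraries that could be technical in origin.

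The DNK libraries held 200646 to 227373 gene counts each and the CtrlK libraries 174371 to 216713. Levels below are normalised CPM, gene counts relative to the gene total of the library after TMM scaling, and 3 counts correspond to 13.1 to 15.7 CPM in a library. Levels are not compared between genes, since they are not per length. Endothelial markers were present: all 18 IDs matched to 15 listed markers had counts, with 494 counts in DNK and 389 in CtrlK for cdh5, the endothelial cadherin. Reads aligned outside genes were fewer per gene count in DNK (3.18 to 3.73) than in CtrlK (4.85 to 6.003); their part in the results was not tested. Of 3792 tested genes, 7.12% differed between the groups by edgeR's quasi-likelihood test at an adjusted p below 0.05, 4.72% being higher and 2.40% lower in DNK.

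Both coat genes had more transcript in each DNK library than in any CtrlK library. plin2 encodes adipophilin, a perilipin that sits on the droplet and is broken down when it has no droplet to bind. It had 188, 153 and 163 CPM in DNK replicates 1, 2 and 3, against 15.5, 40.2 and 35.0 CPM in CtrlK replicates 1, 2 and 3. The DNK values lay close together and far above the CtrlK values, which rested on 3, 9 and 8 counts. The means were 168 ± 17.95 CPM in DNK and 30.2 ± 13.002 CPM in CtrlK (SD, n = 3 each), a fitted difference of 5.39-fold, or 2.43 ± 0.47 on the log2 scale (SE). plin2 entered the tested genes through DNK alone, since no CtrlK library reached the filter level of 47.2 unscaled CPM.

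plin3, also known as TIP47, encodes a perilipin that is mostly cytosolic and moves onto newly forming droplets. It had 386, 191 and 315 CPM in DNK replicates 1, 2 and 3, against 67.3, 71.5 and 114 CPM in CtrlK replicates 1, 2 and 3. The lowest DNK library still stood above the highest CtrlK library, and all 6 libraries were above the filter level. The means were 297 ± 98.2 CPM in DNK and 84.1 ± 25.6 CPM in CtrlK (SD, n = 3 each), 3.50-fold by the fit, or 1.81 ± 0.39 on the log2 scale (SE). Across all tested genes, 16.2% had each DNK library above each CtrlK library, and as both coat genes were chosen for this direction nothing is read from their share.

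The ratio of plin2 to plin3 counts within a library, which needs no scaling between libraries, was 0.487, 0.800 and 0.517 in DNK and 0.231, 0.563 and 0.308 in CtrlK. The groups overlapped in this ratio, as CtrlK replicate 2 lay above DNK replicates 1 and 3. Normalisation bore on the size of both differences. With factors taken from the 200 most abundant genes, which lowered the median log2 fold change of all genes by 0.78, plin2 had a log2 fold change of 1.68 and plin3 one of 1.04.

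**Figure D1:**
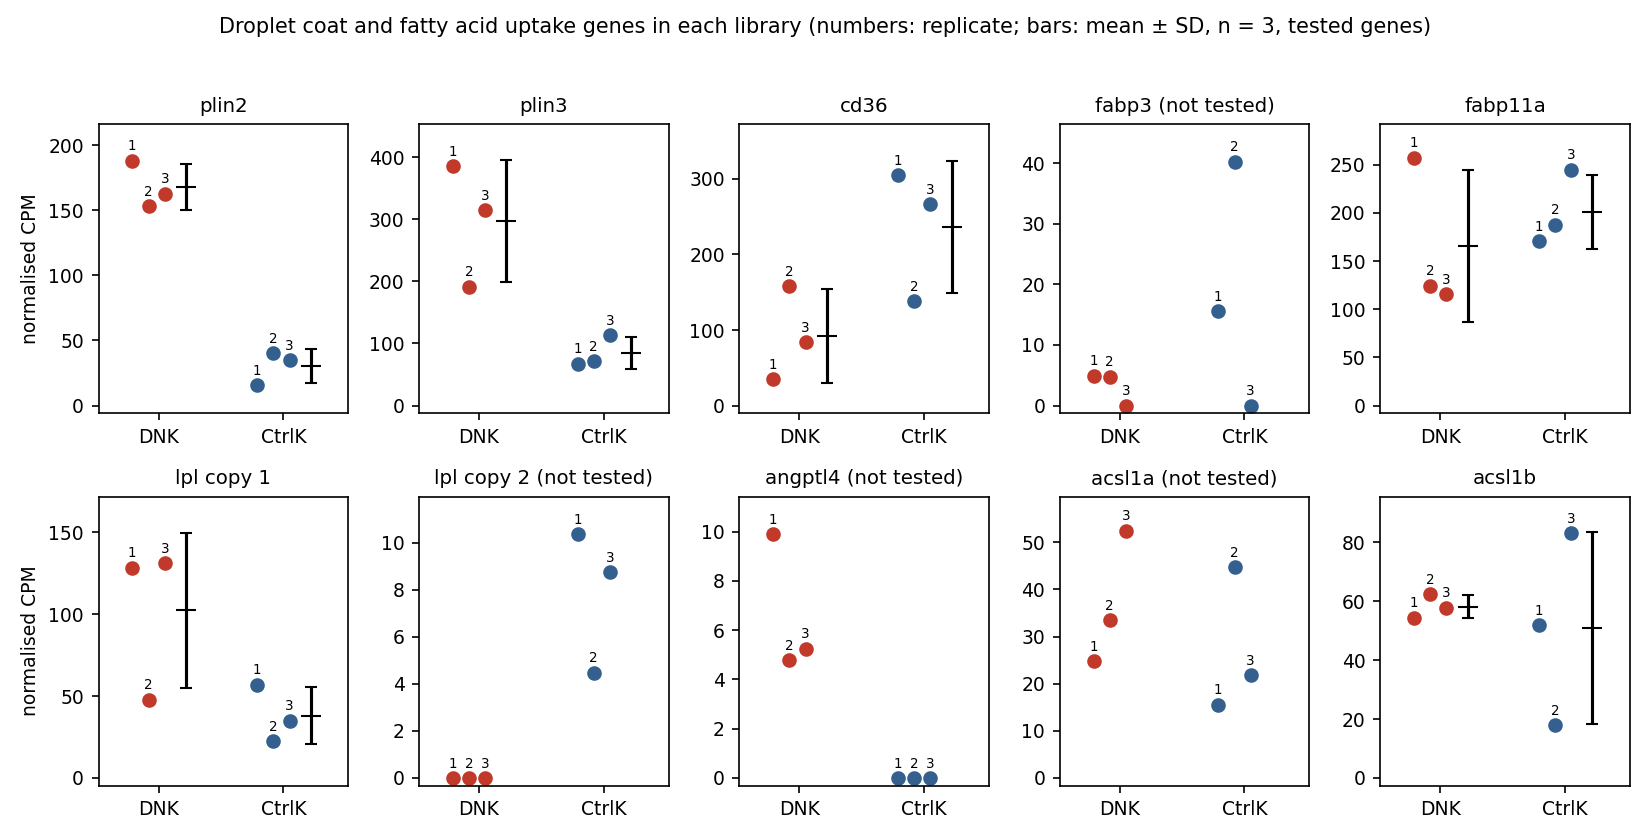
Normalised CPM (vertical axes, one scale per gene) of the 10 gene IDs in the 3 DNK (red) and 3 CtrlK (blue) libraries, numbered by replicate, with mean ± SD for the 6 tested genes. plin2 and plin3 are separated between the groups, while cd36, fabp11a, lpl copy 1 and acsl1b overlap.

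None of the uptake and activation genes passed the test. Of their 8 IDs, 4 had enough counts to be tested, and edgeR called 0 of the 4, against 7.12% of all tested genes. limma-voom and DESeq2 also called 0. By edgeR 2 had an unadjusted p under 0.05, cd36 and 1 copy of lpl, as did 941 of all 3792 tested genes. The 4 genes differed in direction among themselves: cd36 and fabp11a had negative values and lpl and acsl1b positive ones.

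cd36 encodes the scavenger receptor also called fatty acid translocase, through which endothelial cells take up long-chain fatty acids. It had 34.6, 158 and 83.9 CPM in DNK replicates 1, 2 and 3, against 305, 138 and 267 CPM in CtrlK replicates 1, 2 and 3. Most DNK values lay below the CtrlK values, but DNK replicate 2 was above CtrlK replicate 2, so the groups overlapped. The means were 92.1 ± 62.1 CPM in DNK and 237 ± 87.3 CPM in CtrlK (SD, n = 3 each), with a log2 fold change of −1.35 ± 0.48 (SE, 95% interval −2.37 to −0.32, adjusted p = 0.0987 by edgeR). The adjusted p over the alternatives was 0.0161 to 0.309. It passed only with factors from the 200 most abundant genes (log2 fold change −2.12, adjusted p = 0.0161 by edgeR), where the median of all genes also shifted down. The value depended on single libraries, at −0.92 without DNK replicate 1 and −1.96 without DNK replicate 2.

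The fold changes of the coat genes and of cd36 had opposite signs, and within DNK the libraries were ordered in opposite ways. DNK replicate 1 had the highest plin2 and plin3 and the lowest cd36, and DNK replicate 2 the lowest plin2 and plin3 and the highest cd36. In CtrlK, replicate 1 had the highest cd36 and the lowest plin2 and plin3, and replicate 2 the lowest cd36 and the highest plin2, while plin3 was highest in replicate 3. Within each library the plin2 and plin3 counts together were 16.6, 2.18 and 5.69 times the cd36 counts in DNK replicates 1, 2 and 3, against 0.271, 0.806 and 0.557 times in CtrlK replicates 1, 2 and 3. The ratio was higher in each DNK library than in any CtrlK library; its size has no meaning of its own, as counts are not per length. These are descriptions, since the coat genes were picked for their rise.

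**Figure D2:**
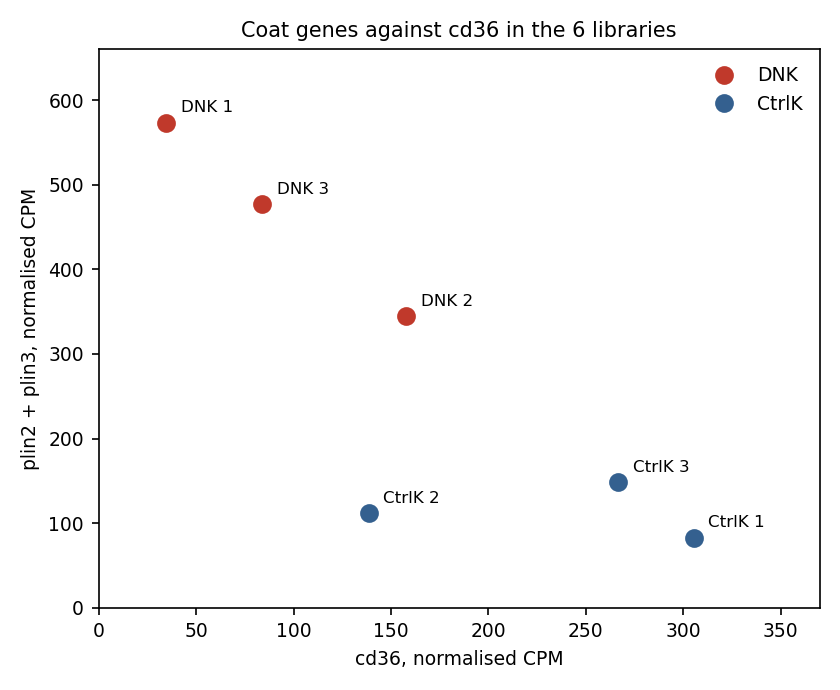
Summed normalised CPM of plin2 and plin3 (vertical axis) against normalised CPM of cd36 (horizontal axis) in the 3 DNK (red) and 3 CtrlK (blue) libraries. The DNK libraries lie at 345 to 573 CPM of the coat genes and the CtrlK libraries at 82.8 to 149 CPM, while DNK replicate 2 and CtrlK replicate 2 are close together in cd36.

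lpl encodes lipoprotein lipase, which frees fatty acids from circulating triglyceride at the vessel surface. LPL ENSDARG00000087697, called lpl copy 1 here, had 129, 47.9 and 131 CPM in DNK replicates 1, 2 and 3, against 56.9, 22.3 and 35.0 CPM in CtrlK replicates 1, 2 and 3. DNK replicates 1 and 3 were above all CtrlK libraries, while DNK replicate 2 fell below CtrlK replicate 1. Its log2 fold change was 1.43 ± 0.53 (SE, 95% interval 0.29 to 2.57), which did not pass (adjusted p = 0.112 by edgeR, 0.0786 to 0.401 over the alternatives). The other copy, LPL ENSDARG00000098720, had no counts in DNK and 2, 1 and 2 counts in the CtrlK libraries, too few to test. Reads can be split or dropped between the copies, and summed they had 26, 10 and 25 counts in DNK against 13, 6 and 10 in CtrlK, which leaves the groups overlapping.

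angptl4 encodes a secreted inhibitor of lipoprotein lipase. It had 2, 1 and 1 counts in the DNK libraries and none in CtrlK, where 0 of 598409 gene counts allows a level of up to 4.64 CPM over the group (counting error only). At this depth no difference in angptl4 could be tested. LIPG ENSDARG00000031044, endothelial lipase, which acts mainly on phospholipids of lipoproteins, had 306.5, 187 and 257 CPM in DNK against 336, 563 and 305.9 CPM in CtrlK. The groups overlapped slightly, and it did not pass (log2 fold change −0.68 ± 0.35, SE, adjusted p = 0.236 by edgeR). It passed with factors from the 200 most abundant genes (−1.49, adjusted p = 0.0140 by edgeR), which shift all genes down.

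Of the binding protein genes, fabp11a could be tested. It is a fish member of the family of adipocyte-type fatty acid binding proteins, listed as fabp4a in the name table. It had 257, 124 and 115 CPM in DNK replicates 1, 2 and 3, against 171, 188 and 245 CPM in CtrlK replicates 1, 2 and 3. DNK replicate 1 was the highest of all 6 libraries and the other DNK libraries were the lowest. The log2 fold change was −0.28 ± 0.38 (SE, 95% interval −1.10 to 0.54, adjusted p = 0.689 by edgeR). fabp3, the heart-type binding protein, had 1, 1 and 0 counts in DNK and 3, 9 and 0 in CtrlK, of which 1 CtrlK library held most. It could not be tested.

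acsl1a and acsl1b encode long-chain acyl-CoA synthetases, which activate fatty acids, and acsl1b could be tested. It had 54.4, 62.2 and 57.7 CPM in DNK, against 51.7, 17.9 and 83.0 CPM in CtrlK. The DNK libraries lay within the range of CtrlK (log2 fold change 0.19 ± 0.53, SE, 95% interval −0.94 to 1.31, adjusted p = 0.849 by edgeR), and the sign turned with library size alone, with factors from the 200 most abundant genes or without CtrlK replicate 2. acsl1a, listed as ACSL1 in the name table, had 5, 7 and 10 counts in DNK and 3, 10 and 5 in CtrlK and was not tested. The intervals of acsl1b and fabp11a hold changes in both directions, so neither gene is shown to be equal between the groups. Of the other synthetase genes, ACSL3 ENSDARG00000014674, named after its values were seen, had 119, 86.1 and 105 CPM in DNK against 181, 165 and 144 CPM in CtrlK. Its groups did not overlap, as in 14.6% of all tested genes in that direction. It did not pass (log2 fold change −0.66 ± 0.37, SE, adjusted p = 0.284 by edgeR).

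Summed over the 8 uptake and activation IDs, the level was 514, 436 and 446 CPM in DNK and 626, 456 and 660 CPM in CtrlK. The groups overlapped. For plin2 and plin3 together the level was 573, 345 and 477 CPM in DNK and 82.8, 112 and 149 CPM in CtrlK.

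The wider lipid pathway was then counted from 5 lists of other genes, of which 26 IDs could be tested. Among them 1 was higher in DNK, 0 were lower and 25 did not pass. With 4.72% of all tested genes called higher and 2.40% lower, so small a list is not set apart by this count. Its median log2 fold change was 0.13, against −0.07 for all tested genes. The gene that passed was CAV1 ENSDARG00000103747, caveolin 1, which forms the coat of caveolae, the membrane pits abundant in endothelium, and also binds fatty acids. It had 5715, 6810 and 6308 CPM in DNK, against 3322, 3136 and 4248 CPM in CtrlK. The groups did not overlap, as in 16.2% of all tested genes in that direction. The log2 fold change was 0.81 ± 0.23 (SE, adjusted p = 0.0450 by edgeR, 0.0147 to 0.835 over the alternatives). It did not pass in 9 of 17 alternatives, among them those without CtrlK replicate 1 (edgeR adjusted p of 0.0768) or 2 (0.171), without DNK replicate 1 (0.111), 2 (0.167) or 3 (0.128), with library size alone (0.0883), with factors from the 200 most abundant genes (0.835, log2 fold change 0.05) and with no filter (0.0611).

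Other genes of droplet formation did not pass. Besides plin2 and plin3, 2 of the droplet genes could be tested. LPIN2 ENSDARG00000061214, a phosphatidate phosphatase of triglyceride synthesis, had 69.2, 86.1 and 89.1 CPM in DNK, against 41.4, 8.93 and 21.8 CPM in CtrlK. Its groups did not overlap, as in 16.2% of all tested genes in that direction. The log2 fold change was 1.77 ± 0.54 (SE), with an adjusted p of 0.0612 by edgeR. Scaled to the total of the 5 rows that name no gene, edgeR's adjusted p was 0.0453. Like plin2, LPIN2 entered the tested genes through DNK alone, with 8, 2 and 5 counts in CtrlK replicates 1, 2 and 3. Its separation and p-values are therefore given as a description. AGPAT2 ENSDARG00000101139, an acyltransferase of the same route, lay at 0.82 ± 0.47 on the log2 scale (SE), with an adjusted p of 0.301 by edgeR. By edgeR 0 of the 2 were called, against 7.12% of all tested genes, a share that cannot set so short a list apart. DESeq2 and limma-voom also called 0. The 1 gene at an unadjusted p under 0.05 (941 of 3792 over all tested genes) was LPIN2, whose p-value is a description for the reason given. Other perilipin genes were scarce, with 5 counts in DNK and 4 in CtrlK for plin1, the adipocyte perilipin, and 1 count in DNK and 3 in CtrlK for plin6.

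No call was made among the testable genes of fatty acid oxidation, lipoprotein handling and lipid regulation, lists too short for a share of 7.12% over all tested genes to set them apart. For oxidation 3 of 32 IDs could be tested and 0 passed by edgeR (also 0 by limma-voom, DESeq2 or an unadjusted p under 0.05). HADH ENSDARG00000030765, a mitochondrial oxidation enzyme, had a log2 fold change of 0.32 ± 0.35, and ACOX3 ENSDARG00000038865, a peroxisomal one, −0.47 ± 0.54 (SE). Both had overlapping groups. In lipoprotein handling 4 genes other than lpl were tested and 0 passed by edgeR (0 at an unadjusted p under 0.05, 0 by the other tools), among them LRP1 ENSDARG00000097827, a lipoprotein receptor, with a log2 fold change of 0.48 ± 0.44 (SE).

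Of the lipid-responsive regulators and synthesis genes 10 were tested and 0 passed by edgeR, DESeq2 or limma-voom. Over all tested genes 941 of 3792 had an unadjusted p under 0.05 by edgeR, and here 2 of the 10 did. These were NR1H3 ENSDARG00000098439, the liver X receptor alpha, a sterol sensor, and ACLY ENSDARG00000099079, ATP citrate lyase, which supplies acetyl-CoA for lipid synthesis. NR1H3 had 390.5, 440 and 571.5 CPM in DNK against 279, 183 and 258 CPM in CtrlK (log2 fold change 0.96 ± 0.32, SE, adjusted p = 0.0791 by edgeR). ACLY ENSDARG00000099079 had 59.3, 38.3 and 52.4 CPM in DNK against 114, 125 and 127 CPM in CtrlK (log2 fold change −1.28 ± 0.43, SE, adjusted p = 0.0838 by edgeR). In neither gene did the groups overlap, as in 16.2% of all tested genes for the higher and 14.6% for the lower direction, and both were named for the smallest p of their list. ACLY passed with library size alone (0.0459) or factors from the 200 most abundant genes (0.00929).

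**Figure D3:**
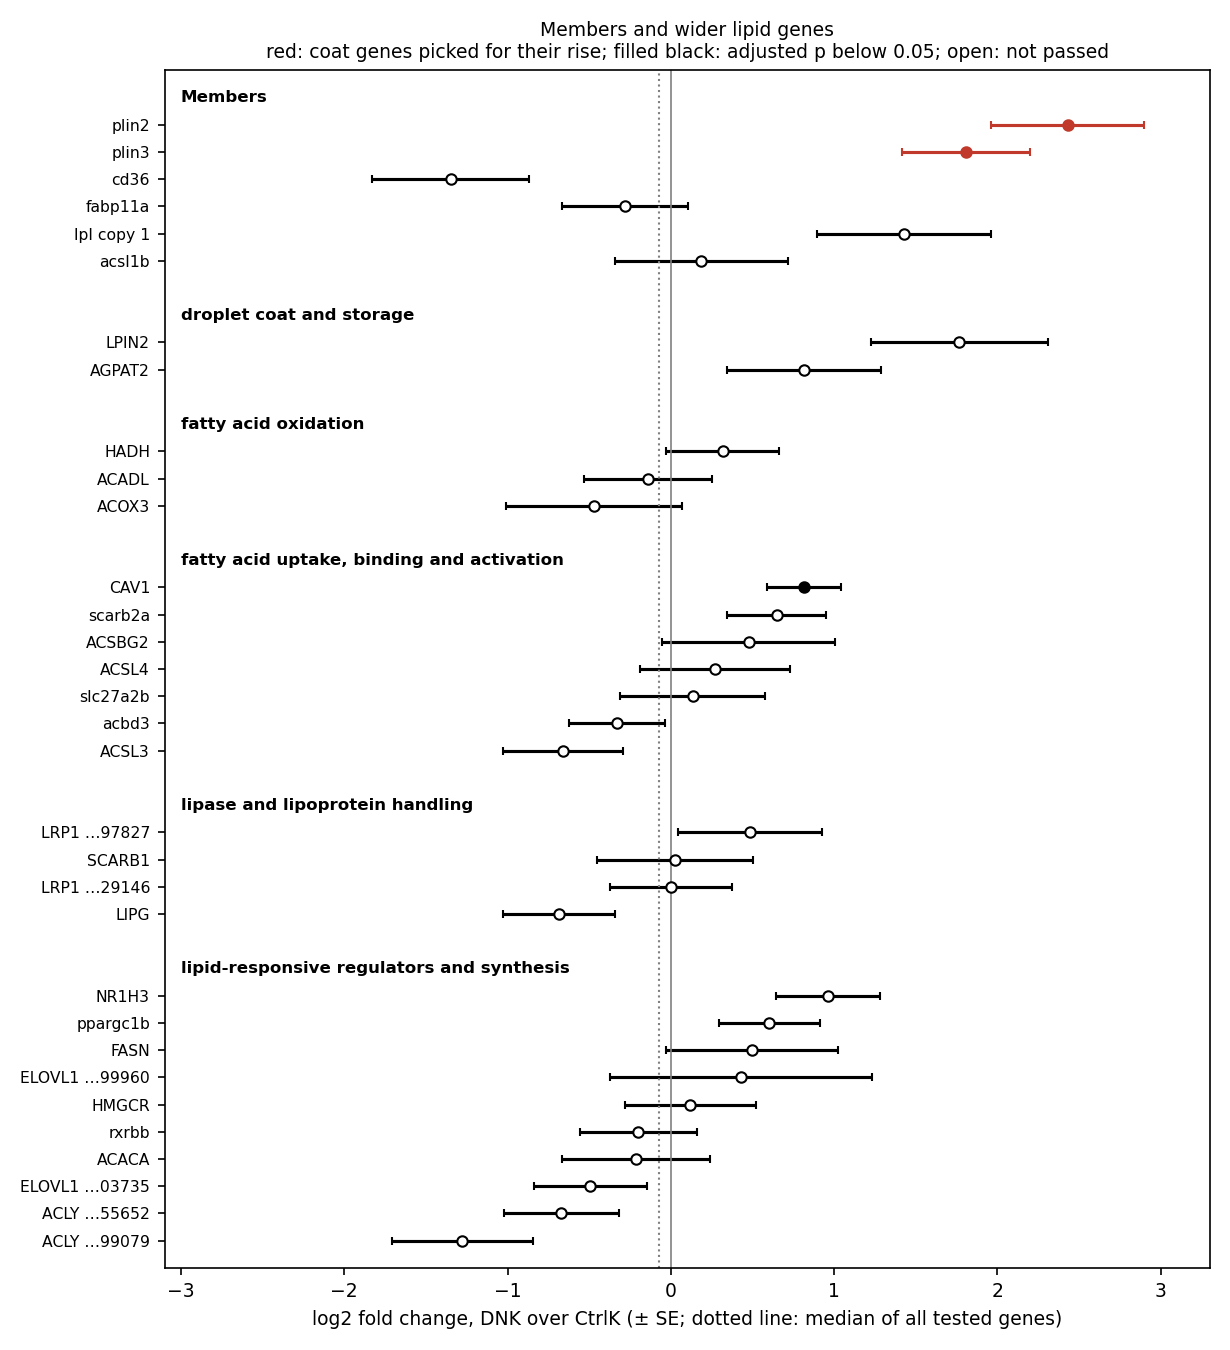
Log2 fold change, DNK over CtrlK, with SE (horizontal axis) of the 6 tested genes of the set and the 26 tested genes of the 5 wider lists. plin2 and plin3 (red) were picked for their rise, CAV1 (filled black, 0.81) passed, open points did not, and the dotted line marks the median of all tested genes, −0.07.

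The genes most like the coat genes over the 6 libraries were found by Pearson's r of log2 CPM, as a description of libraries that fall into 2 groups. For plin2 they were NETO2 (r = 0.998), MT-CO3 (0.996), csnk1da (0.995), si:dkey-238c7.12 (0.994) and ITPKC (0.993). For plin3 they were hsp70.3 (0.992), SASH1 (0.990), hsp70.1 (0.988), SLC25A5 (0.987) and pabpc1a (0.985). None of these 10 is a gene of the lipid lists.

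Markers of other cells that use these genes were set beside them, since in sorted bulk samples fewer cells of a type and less RNA per cell cannot be told apart. Macrophage and neutrophil markers, of which 28 of 35 IDs had counts, summed to 1856 to 1982 CPM in DNK and to 843 to 1468 CPM in CtrlK. Of 8 tested, edgeR called 0, while all 8 had a positive log2 fold change (median 0.89), as had 46.9% of all tested genes. The 8 include copies of the same genes, cd74a with cd74b and SPI1 with spi1a. By edgeR 3 had an unadjusted p under 0.05, as did 941 of all 3792 tested genes. Among the 3 was SPI1, with 2, 5 and 10 counts in CtrlK replicates 1, 2 and 3. Like plin2, SPI1 entered the tested genes through DNK alone, so its p-value and fold change are a description. The largest parts of the sum were cd74b (means of 578 CPM in DNK and 326 in CtrlK, groups overlapping) and cd74a (455 and 232). The neutrophil gene lyz was at 0 in all libraries, as were CXCR3, 1 MFAP4 ID, mfap4.7, mfap4.8, mfap4.9 and mfap4.11. This sum was thus higher in each DNK library, as plin2 and plin3 were, and its part in their difference was not tested. Endothelial markers summed to 2134 to 2479 CPM in DNK and 978 to 1674 CPM in CtrlK, also higher in each DNK library. Of 7 tested, all 7 had a positive log2 fold change (median 0.77), and edgeR called 1 higher, vwf (adjusted p = 0.0178). Over all tested genes 46.9% had a positive log2 fold change, 4.72% were called higher and 2.40% lower. Marker lists as short as this one and those below are not set apart by their counts of calls. Groups did not overlap in 16.2% of all tested genes in the higher and 14.6% in the lower direction, and no such share was taken for sums.

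Adipocyte markers had 7 of 9 IDs with counts and summed to 41.9 to 133 CPM in DNK and to 40.2 to 83.0 CPM in CtrlK. They overlapped, and 1 of the 2 ADIPOQ IDs and lepb were at 0 in all libraries, while the other ADIPOQ ID had 4 counts in DNK and 7 in CtrlK. Cardiomyocyte markers had 23 of 26 IDs with counts and summed to 2747 to 3388 CPM in DNK and to 2494 to 3173 CPM in CtrlK, also overlapping, with actc1b, actc1c and 1 TNNT2 ID at 0. Of 8 tested, edgeR called 1 higher in DNK, atp2a2a (adjusted p = 0.0453), and DESeq2 and limma-voom called 0. The median log2 fold change of the 8 was −0.24, with 4 positive. Groups were also apart in MYL7, higher in DNK (1.36, adjusted p = 0.0829 by edgeR), and tnnt2d, lower in DNK (−1.11, 0.0592). Like plin2, atp2a2a entered the tested genes through DNK alone. It had 15, 11 and 17 counts in DNK replicates 1, 2 and 3, against 4, 5 and 2 in CtrlK replicates 1, 2 and 3.

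Fibroblast, epicardial and mural markers had all 16 IDs with counts and summed to 1777 to 1982 CPM in DNK and to 1327 to 1537 CPM in CtrlK. Of 10 tested, 2 were called higher by edgeR, COL1A2 (adjusted p = 0.0229) and PDGFRB (0.0206). The median log2 fold change of the 10 was 0.08, with 7 positive, and that of col1a1a was −0.39. This sum was higher mainly through COL1A2 (means of 283 CPM in DNK and 96.6 in CtrlK), PDGFRB (208 and 63.4) and PDGFRA (391 and 291, groups overlapping). Erythrocyte markers, 4 of 5 IDs with hbaa2 at 0, summed to 57.7 to 115 CPM in DNK and to 25.9 to 48.1 CPM in CtrlK. Both sums were higher in each DNK library, the erythrocyte one mostly through alas2 (38 counts in DNK, 7 in CtrlK, groups overlapping). In DNK replicate 3 alas2 had 4 counts, against 5 in CtrlK replicate 2. The other erythrocyte IDs with counts differed little: hbaa1 had 1 and 2, and the SLC4A1 IDs 10 and 9, and 6 and 7. Thrombocyte and lymphocyte markers, 9 of 10 IDs with cd79a at 0, summed to 455 to 713 CPM in DNK and to 817 to 1221 CPM in CtrlK. This sum was lower in each DNK library, as cd36 was in most. It came mostly from THBS1 ENSDARG00000010785 (means of 411 CPM in DNK and 566 in CtrlK, groups overlapping) and cd8a (131 and 344 CPM). Of 2 tested, cd8a was called lower (adjusted p = 0.0226 by edgeR). Hepatocyte and enterocyte markers, 8 of 9 IDs with fabp10a at 0, overlapped at 173 to 299 CPM in DNK and 228 to 271 CPM in CtrlK. Their part in the values of the lipid genes was not tested.

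**Figure D4:**
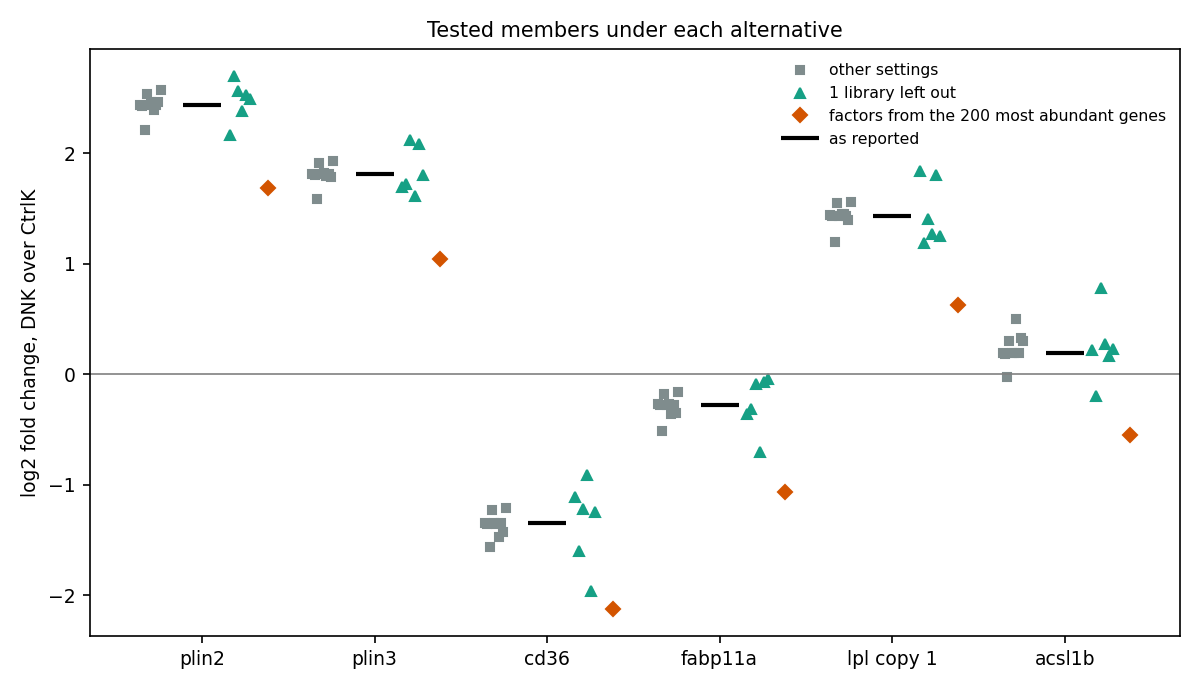
Log2 fold change, DNK over CtrlK (vertical axis), of the 6 tested genes as reported (bar), with each library left out (triangles), with factors from the 200 most abundant genes (diamonds) and under the other settings (squares). plin2 stays between 1.68 and 2.70 and plin3 between 1.04 and 2.11, cd36 stays below 0, and acsl1b falls on both sides of 0.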

How the data were processed

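The deposited tables hold raw counts, 1 whole number per Ensembl gene and library. Per the labels' protocols, RNA of sorted cells was amplified by MALBAC, and no molecular identifiers are named. The submitters' processing notes list DESeq2 1.22.2, HTSeq 0.6.1, HISAT2 2.1.0, Trim Galore 0.6.0 and the build GRCz11. Neither the strand setting nor the annotation release is given in the sources used here. Counting intervals and floors cover counting error only. The 5 rows that name no gene held 98.5% of the counts in each DNK library and 98.7% to 98.9% in CtrlK, and were left out.

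Names came from a table that named 29201 of 32520 IDs; fabp11a was found as a RefSeq synonym of fabp4a. No sequences or coordinates were used. Genes kept by filterByExpr (3792) were tested with edgeR 4.0.16 (TMM, robust quasi-likelihood, R 4.3.3; Benjamini-Hochberg adjusted p below 0.05). SE is the absolute log2 fold change over the square root of F. CPM use total gene counts times TMM factors. Intervals are 95%. The steps were tested on simulated counts. No library pair agreed within sampling noise (chi-square per degree of freedom 3.51 to 12.8).

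Genes and lists were chosen with earlier results of these data known. Named are the set itself, from each list up to 4 called genes or else the 2 with the smallest p, and the 5 genes most like plin2 and plin3. Human-style names were matched without copy letters. Alternatives used other factors and filters, DESeq2 1.42.0, limma-voom 3.58.1, a replicate block and 1 library left out.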

Additional observations from a re-analysis of the deposited data

How the results depend on the processing

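Alternatives were counted for 15 genes with a printed log2 fold change. ACSL3, lipea and pparg are not among them. The 17 alternatives gave 255 values, of which 234 kept direction and side of the threshold, 5 reversed, 9 lost and 5 gained a call. The untested plin2 and plin3 each moved by more than the replicate spread once. The reversals were acsl1b with library size alone (−0.030), with factors from the 200 most abundant genes (−0.55) and without CtrlK replicate 2 (−0.20, in a range up to 0.78 without CtrlK replicate 3), and, with factors from the 200 most abundant genes, HADH (−0.49) and LRP1 ENSDARG00000097827 (−0.32). The lost calls were those of CAV1. These factors moved the median of all genes by −0.78 and library size alone by −0.22. With no filter the median was −0.07 over 23176 genes, as in the main fit, but over a different set of genes. The shift from the main fit was 0.11, as for CAV1 from 0.81 to 0.93. Scaling to the total of the 5 rows that name no gene moved the median by 0.14. The share of called genes that were higher in DNK was 66.3%, and 5.29%, 42.5%, 76.5% and 79.4% under these settings. They called 1059 genes with the 200 most abundant genes, against 270, as well as 1 uptake gene (cd36, against 0) and 6 wider lipid genes (against 1). Scaled to the total of the 5 rows that name no gene, 2 wider lipid genes were called. That total is not the reads aligned outside genes given above. Low-quality alignments alone were 58.0% to 59.2% of all counts in DNK and 58.1% to 58.2% in CtrlK. With 1 library left out the counts were 89 to 277 genes (lowest without DNK replicate 1), 0 uptake genes and 0 to 1 wider lipid genes. With the replicate number as a block 0 wider lipid genes and 252 genes in all were called, and CAV1 had an adjusted p of 0.109 by edgeR. Same-numbered libraries did not deviate together (r = −0.10, −0.00 and −0.04 across genes). The labels do not say that they are paired, and a shared batch was not tested. Causes were not tested. Depth limits the set: 4 of 10 IDs had too few counts to test.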

Other observations

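Beyond the comparisons above, 2 lipid genes with too few counts for the test are described here. Both were higher in DNK and were chosen after their values were seen. lipea, a hormone-sensitive lipase gene that releases fatty acids from droplets, had 17, 22 and 0 counts in DNK replicates 1, 2 and 3, against 3, 0 and 0 counts in CtrlK replicates 1, 2 and 3, so its counts in DNK came from 2 libraries. pparg, a nuclear receptor gene of fat storage, had 5, 8 and 5 counts in DNK, against 0, 0 and 2 counts in CtrlK. With no filter on low counts the log2 fold change was 3.70 for lipea and 3.15 for pparg. As both were chosen for their rise, these values are a description, with no test. Of the related copy, lipeb had 5 counts in DNK and 14 in CtrlK. Other untested genes of the wider lists were lower in DNK. FITM2 ENSDARG00000034568 had 6 counts in DNK and 22 in CtrlK, CPT1B ENSDARG00000058285 4 and 19, and cpt1ab 19 and 40.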
